A study of Mus musculus with 12 samples.

Results

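The Frizzled receptor family was followed across 4 groups of mouse stem cell cultures by RNA sequencing. Its members were chosen by name, as the genes Fzd1 to Fzd10 of the deposited table, and all 10 were found among 24736 genes and were among the 14196 genes with enough reads to be tested. Frizzled proteins cross the membrane 7 times and bind WNT ligands with a cysteine-rich domain outside the cell. With the co-receptors LRP5 and LRP6 they recruit Dishevelled and stabilise β-catenin, and with other partners (ROR, PTK7, VANGL and CELSR proteins) they act in β-catenin-independent signalling and planar cell polarity. The ubiquitin ligases RNF43 and ZNRF3 remove Frizzleds from the cell surface, and R-spondins with LGR receptors counter that removal. In the early embryo these receptors carry the WNT signal that patterns the posterior epiblast and the primitive streak. By sequence the family falls into 4 subfamilies, which are Fzd1, Fzd2 and Fzd7, then Fzd3 and Fzd6, then Fzd4, Fzd9 and Fzd10, and then Fzd5 and Fzd8.

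All cultures were differentiated for 72 h from embryonic stem cells with FGF at 10 ng/ml and LGK974 at 5 µM, an inhibitor of porcupine that keeps WNT ligands from being secreted. EpiLC (epiblast-like cells) were wild type and received nothing else, and CEpiLC (caudal epiblast-like cells) were wild type and received CHIR99021, which inhibits GSK3 and so stabilises β-catenin downstream of the receptors, from day 2 to day 3. SOX2-OFF and SOX2-ON cells also received CHIR99021, and came from SOX2 TetON cells, a line in which endogenous Sox2 was ablated and a doxycycline-inducible Sox2 transgene sat in the Hprt locus, with the rtTA activator expressed from Rosa26. SOX2-ON cells received doxycycline at 1 µg/ml and SOX2-OFF cells received none. Each group had 3 biological replicates. The wild type was the parental HM1 TetON line, the SOX2 TetON cells were picked as an edited clone, and no SOX2 TetON culture without CHIR99021 was analysed here. The cell line therefore differed in every comparison of SOX2-OFF or SOX2-ON with EpiLC or CEpiLC, and line and SOX2 cannot be told apart there. SOX2-ON and SOX2-OFF differed within 1 line, by doxycycline and by what it switches on. The dose of CHIR99021 is left out because the labels and the methods give it in different units.

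The libraries held between 10408252 and 27337740 expected counts. Sox2 itself stood at 187 ± 24 TPM in SOX2-ON and 137 ± 29.7 TPM in EpiLC, and at 16.5 ± 4.48 TPM in SOX2-OFF and 10.4 ± 3.01 TPM in CEpiLC (SD, n = 3; TPM is a level scaled for transcript length and for the total of the library). Reads from the ablated gene and from the transgene are counted together, so the level in SOX2-OFF does not measure protein. Marker genes followed the labels of the wild-type groups. The summed level of 6 epiblast markers was 2409 to 2842 TPM in EpiLC and 835 to 1192 TPM in CEpiLC. It was 910 to 1070 TPM in SOX2-OFF and 1191 to 1434 TPM in SOX2-ON. In the test described below, 5 of the 6 were lower in CEpiLC than in EpiLC. Pou5f1 did not pass, at 887 ± 66.6 TPM in EpiLC and 843 ± 145 TPM in CEpiLC. The sum of 6 markers of caudal epiblast and streak was 1.45 to 2.44 TPM in EpiLC and 1374 to 1564 TPM in CEpiLC. The caudal sum was 965 to 979 TPM in SOX2-OFF and 237 to 284 TPM in SOX2-ON. T alone made up most of the SOX2-OFF sum, at 792 to 830 TPM. Neither T nor Cdx1 passed between SOX2-OFF and CEpiLC, but the other 4 genes of the list did, each with less in SOX2-OFF. From CEpiLC to SOX2-OFF the means went from 225 to 32.4 TPM for Cdx2 and from 344 to 43.1 TPM for Nkx1-2. They went from 58.6 to 10.7 TPM for Wnt3a and from 62.1 to 26.3 TPM for Fgf8. Summed levels of 10 markers of extraembryonic endoderm were 9.72 to 13.4 TPM in EpiLC and 6.42 to 9.79 TPM in CEpiLC, with Ttr at 0 in the latter, against 289 to 337 TPM in SOX2-OFF and 123 to 343 TPM in SOX2-ON. The 8 of these 10 that could be tested were all higher in both SOX2 TetON groups than in CEpiLC. Dab2 (means of 127 TPM in SOX2-OFF and 71.8 TPM in SOX2-ON) and Cubn (83.7 and 45.2 TPM) were the largest parts. Afp and Apoa1, which were not tested, had means of at most 0.363 TPM there. The paper reports raised genes of early, anterior mesoderm and endoderm in SOX2-OFF, so the name of this list does not settle the kind of endoderm. The part of these markers in the Frizzled differences between the lines was not tested. Summed markers of fibroblast feeders, on which the stem cells had been kept, were 40.8 to 58.4 TPM in EpiLC and 59.8 to 88.4 TPM in CEpiLC. They were 21.2 to 41.1 TPM in SOX2-OFF and 22.6 to 42.4 TPM in SOX2-ON. Against CEpiLC, Thy1 and Pdgfrb were lower and Dcn higher in both SOX2 TetON groups, Lum was higher in SOX2-ON, and the rest did not pass. Summed neural markers, mostly Tubb3, were 122 to 157 TPM in EpiLC and 28.2 to 42.9 TPM in CEpiLC. They were 40.5 to 52.5 TPM in SOX2-OFF and 63.2 to 81.6 TPM in SOX2-ON.

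The 2 members that led the family in turn were Fzd7 and Fzd10, and the sequence before their start sites is given because the text returns to both. These are the 250 bases upstream of the RefSeq start in GRCm38.p6 (mm10), 5′ to 3′ on the plus strand, with the letters of a matched motif in capitals.
Fzd7, chr1:59481897-59482146: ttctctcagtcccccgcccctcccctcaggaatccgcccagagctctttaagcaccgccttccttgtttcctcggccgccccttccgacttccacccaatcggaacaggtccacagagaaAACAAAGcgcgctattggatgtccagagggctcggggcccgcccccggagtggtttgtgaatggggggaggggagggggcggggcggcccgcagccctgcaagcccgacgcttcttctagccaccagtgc
Fzd10, chr5:128600856-128601105: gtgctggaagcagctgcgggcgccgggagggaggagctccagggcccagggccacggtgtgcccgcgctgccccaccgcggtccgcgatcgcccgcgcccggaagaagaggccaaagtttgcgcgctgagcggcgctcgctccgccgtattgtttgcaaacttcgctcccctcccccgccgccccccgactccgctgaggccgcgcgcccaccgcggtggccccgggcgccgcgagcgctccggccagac
Windows of 300 bases, from 250 before to 50 after the start, were at hand from RefSeq for 6 members (Fzd1, Fzd4, Fzd5, Fzd7, Fzd9 and Fzd10). They were searched on both strands for the TCF/LEF words CTTTGAT and CTTTGAA and for the SOX words CTTTGTT and CATTGTT, of which CTTTGTT shares its first 5 letters with both TCF/LEF words. The single match in the 6 windows was AACAAAG, the reverse complement of CTTTGTT, 130 bases before the start of Fzd7. Of 32851 promoter windows of the same length, 8.65% held a TCF/LEF word and 9.36% a SOX word. A match to so short a word is a description of the letters and shows no binding. The Fzd10 window was 77.7% G and C with 45 CpG pairs, and the Fzd7 window 66.7% with 24, against a median of 52.7% over all windows.

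Which Frizzled receptors the cells transcribed was first described from the levels per transcript length. The summed level of the 10 genes was 276, 254 and 243 TPM in the EpiLC libraries and 268, 243 and 235 TPM in the CEpiLC libraries, so that both wild-type groups overlapped. The sum was lower in the SOX2 TetON line, at 117, 122 and 123 TPM in SOX2-OFF and at 155, 163 and 137 TPM in SOX2-ON, and neither of these overlapped the wild-type groups or each other. A TPM is a share of all transcripts, and in bulk samples fewer cells of a type and less RNA per cell cannot be told apart.

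**Figure D1:**
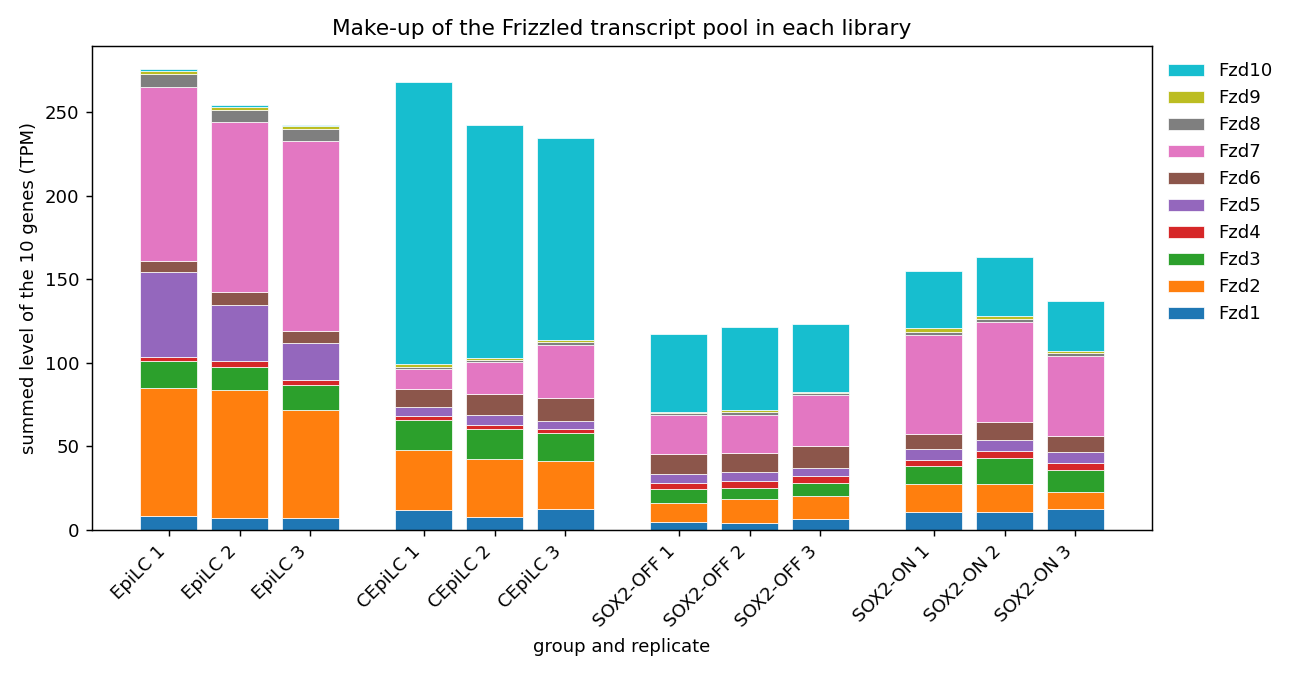
Stacked bars give the level (TPM) of each of the 10 Frizzled genes in each of the 12 libraries, labelled by group and replicate. The bars of EpiLC and CEpiLC reach 235 to 276 TPM, with Fzd7 and Fzd2 filling most of the former and Fzd10 most of the latter.

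Behind similar totals, the make-up of the family was not alike. In EpiLC, Fzd7 took 41.6 ± 4.84% of the Frizzled TPM, Fzd2 28.2 ± 1.67% and Fzd5 13.5 ± 4.77%, and Fzd10 took 0.38 ± 0.102% (SD, n = 3). In CEpiLC, Fzd10 took 57.4 ± 5.77%, ahead of Fzd2 with 13.3 ± 1.05% and Fzd7 with 8.56 ± 4.57%. Fzd10 also led in SOX2-OFF, with 38 ± 4.33% against 21.2 ± 3.45% for Fzd7. In SOX2-ON the order of these was turned, with Fzd7 at 36.7 ± 1.6% and Fzd10 at 21.7 ± 0.415%. As a share of Frizzled reads, not scaled for length, Fzd10 held 25.1 ± 3.32% in SOX2-OFF against 23 ± 3.35% for Fzd7, and in SOX2-OFF replicate 3 it had fewer reads than Fzd7. In SOX2-ON its share of reads was 12.9 ± 0.632%, below Fzd3 with 22.8 ± 3.38%. By subfamily, Fzd1, Fzd2 and Fzd7 together held 72.7 ± 4.13% in EpiLC and 53.7 ± 2.16% in SOX2-ON, against 36.2 ± 4.71% in SOX2-OFF and 26.1 ± 4.44% in CEpiLC. Fzd5 and Fzd8 held 16.3 ± 4.82% in EpiLC, 5.72 ± 0.168% in SOX2-ON, 5.35 ± 0.411% in SOX2-OFF and 2.79 ± 0.315% in CEpiLC. The share of Fzd3 and Fzd6, the subfamily best known for planar polarity, ranged least, from 8.61 ± 0.485% in EpiLC to 16.7 ± 1.25% in SOX2-OFF. The shares are descriptions and were not tested.

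**Figure D2:**
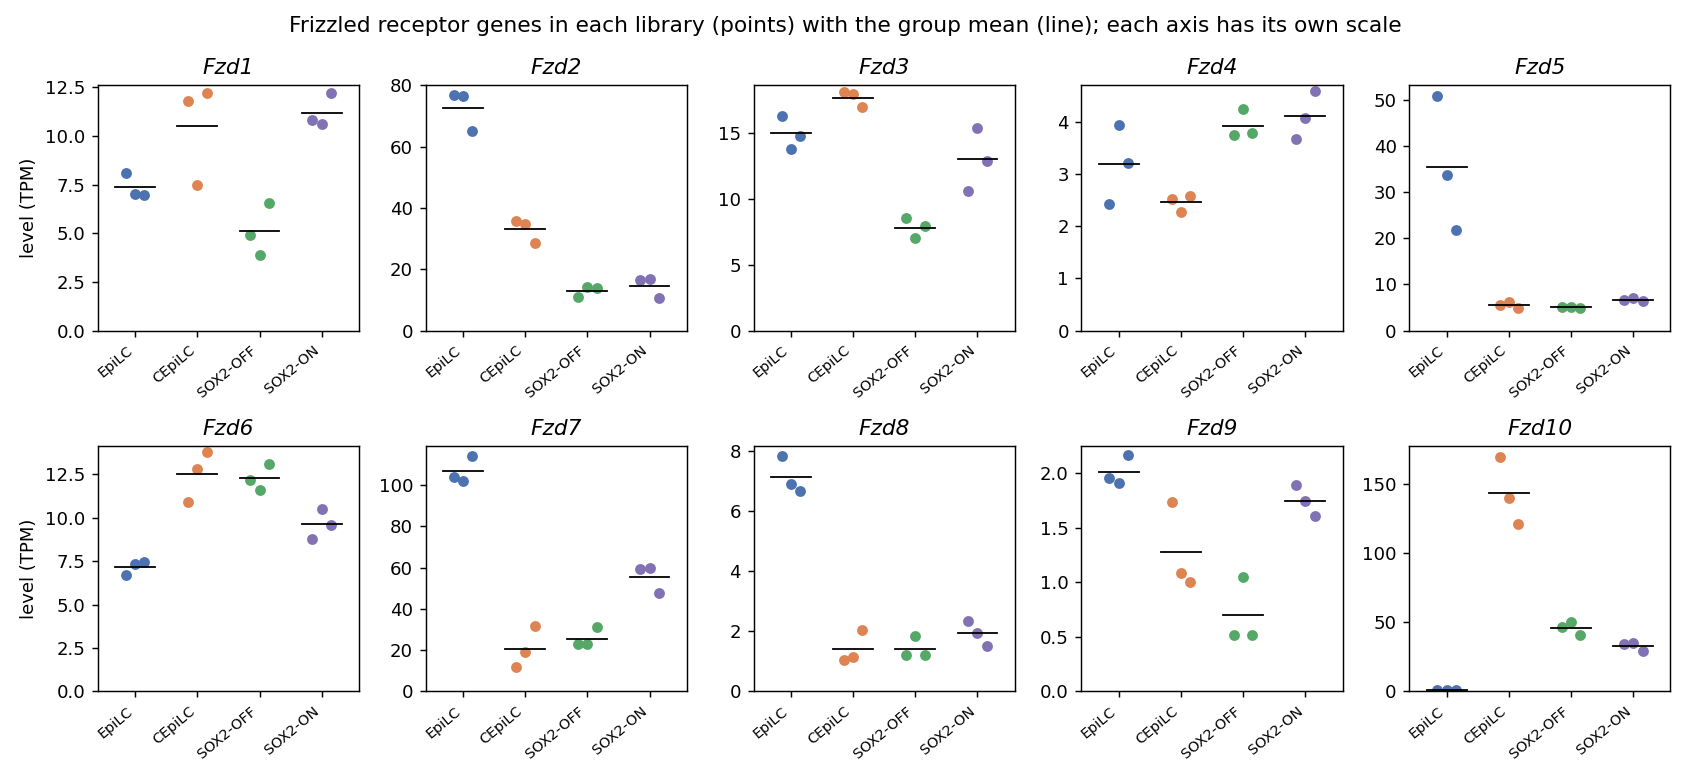
Each panel shows 1 Frizzled gene, with its level (TPM, axis from 0 and scaled to the gene) in the 3 libraries of each group as points and the group mean as a line. Fzd10 lies near 1 TPM in EpiLC and at 121 to 169 TPM in CEpiLC, and Fzd2, Fzd5, Fzd7 and Fzd8 are highest in EpiLC.

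The first comparison, of CEpiLC with EpiLC, asked how the receptors respond in wild-type cells when the pathway is switched on downstream of them. With edgeR's quasi-likelihood test and an adjusted p (Benjamini-Hochberg, over all genes tested) of at most 0.05, 7 of the 10 genes changed. Fzd1, Fzd6 and Fzd10 rose and Fzd2, Fzd5, Fzd7 and Fzd8 fell. Of all genes tested, 42.2% were called in this comparison, 22.1% as higher and 20.1% as lower. The median log2 fold change of the 10 genes was -0.48, against 0.012 over all genes.

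Fzd10, a receptor known from the primitive streak and the dorsal neural tube, made the largest change of the family. It lies on chromosome 5 (128601106 to 128604093, plus strand), with a single exon. Its level was 1.02, 1.24 and 0.69 TPM in EpiLC and 169, 140 and 121 TPM in CEpiLC, so that the lowest treated library stood far above the highest untreated one. The fitted log2 fold change was 7.14 ± 0.18 (SE), a 141-fold rise with a 95% interval of 108 to 186 (adjusted p = 3.34e-11). Fzd4 and Fzd9, the other members of its subfamily, did not pass the test. Fzd4, which also binds the non-WNT ligand Norrin, stood at 2.43, 3.94 and 3.21 TPM in EpiLC and 2.52, 2.27 and 2.58 TPM in CEpiLC, with overlapping ranges (log2 fold change -0.37 ± 0.17, 95% interval -0.74 to 0.00, adjusted p = 0.0999). Without EpiLC replicate 1, the library with the lowest Fzd4 of that group, the difference was -0.54 and passed (adjusted p = 0.0203). Fzd9, the least abundant member in CEpiLC, was at 1.96, 1.91 and 2.17 TPM in EpiLC and 1.74, 1.09 and 1 TPM in CEpiLC. The Fzd9 ranges did not overlap, yet the difference of -0.59 ± 0.28 missed the threshold (adjusted p = 0.113) and passed it only when CEpiLC replicate 1 was left out (-0.93, adjusted p = 0.0367).

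The 4 genes that fell were the 3 leading members of the family in EpiLC and Fzd8. Fzd7, a receptor abundant in pluripotent cells, was at 104, 102 and 114 TPM in EpiLC and at 11.8, 19 and 31.5 TPM in CEpiLC. It fell by 2.39 on the log2 scale (SE 0.26), which is 5.23-fold lower (adjusted p = 1.17e-05). The groups were well apart, but the CEpiLC libraries spread widely around their mean of 20.8 ± 10 TPM. CEpiLC replicate 3 had the highest Fzd7 and Fzd8 and the lowest Fzd10 of its group. It also had the highest summed level of 4 paraxial mesoderm markers, 452 TPM against 76.1 and 119 TPM in the other CEpiLC libraries. In EpiLC that sum was 0.65 to 0.85 TPM. Msgn1 (364 TPM) and Tbx6 (86.2 TPM) made up most of the 452 TPM. The part of this replicate in these values was not tested. Over all alternatives, those without that replicate included, the difference of Fzd7 ran from -2.80 to -2.09 and was called in each (adjusted p up to 0.000332).

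Fzd5 showed the largest fall of the family. Its level was 50.9, 33.7 and 21.7 TPM in EpiLC and 5.47, 6.17 and 4.82 TPM in CEpiLC, 6.43-fold lower (log2 fold change -2.69 ± 0.24, adjusted p = 1.64e-06). The EpiLC libraries differed widely among themselves for this gene, and the lowest of them still lay above all CEpiLC libraries. Fzd8, its close relative, ran in parallel at a lower level, with 7.84, 6.9 and 6.67 TPM in EpiLC against 1.04, 1.16 and 2.03 TPM in CEpiLC. It fell by 2.41 on the log2 scale (SE 0.26, 5.32-fold, adjusted p = 9.47e-06), and its groups did not overlap. Fzd2, the second most abundant Frizzled in EpiLC, was at 76.8, 76.5 and 65 TPM there and at 35.7, 34.8 and 28.7 TPM in CEpiLC. Its fall was smaller, 2.18-fold (log2 fold change -1.13 ± 0.16, adjusted p = 9.61e-05), with no overlap.

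Fzd6 and Fzd1 rose by less than Fzd10. Fzd6, a planar polarity receptor with 7 exons, was at 6.71, 7.34 and 7.46 TPM in EpiLC and at 10.9, 12.8 and 13.8 TPM in CEpiLC. All CEpiLC libraries were higher, by 1.74-fold (log2 fold change 0.80 ± 0.10, adjusted p = 5.49e-05). Fzd1, a receptor of the β-catenin pathway in the same subfamily as Fzd2 and Fzd7, was at 8.09, 7 and 6.99 TPM in EpiLC and at 11.8, 7.49 and 12.2 TPM in CEpiLC. Its groups overlapped through CEpiLC replicate 2. The rise of 0.51 ± 0.19 was just inside the threshold (adjusted p = 0.0494), and the call was lost without any 1 of EpiLC replicates 1, 2 or 3 or of CEpiLC replicates 1 or 3 (adjusted p up to 0.171). Fzd3, the other planar polarity receptor, was at 16.3, 13.8 and 14.8 TPM in EpiLC and 18.1, 18 and 17 TPM in CEpiLC, without overlap, and the difference of 0.25 ± 0.11 did not pass (95% interval 0.02 to 0.48, adjusted p = 0.0773).

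**Figure D3:**
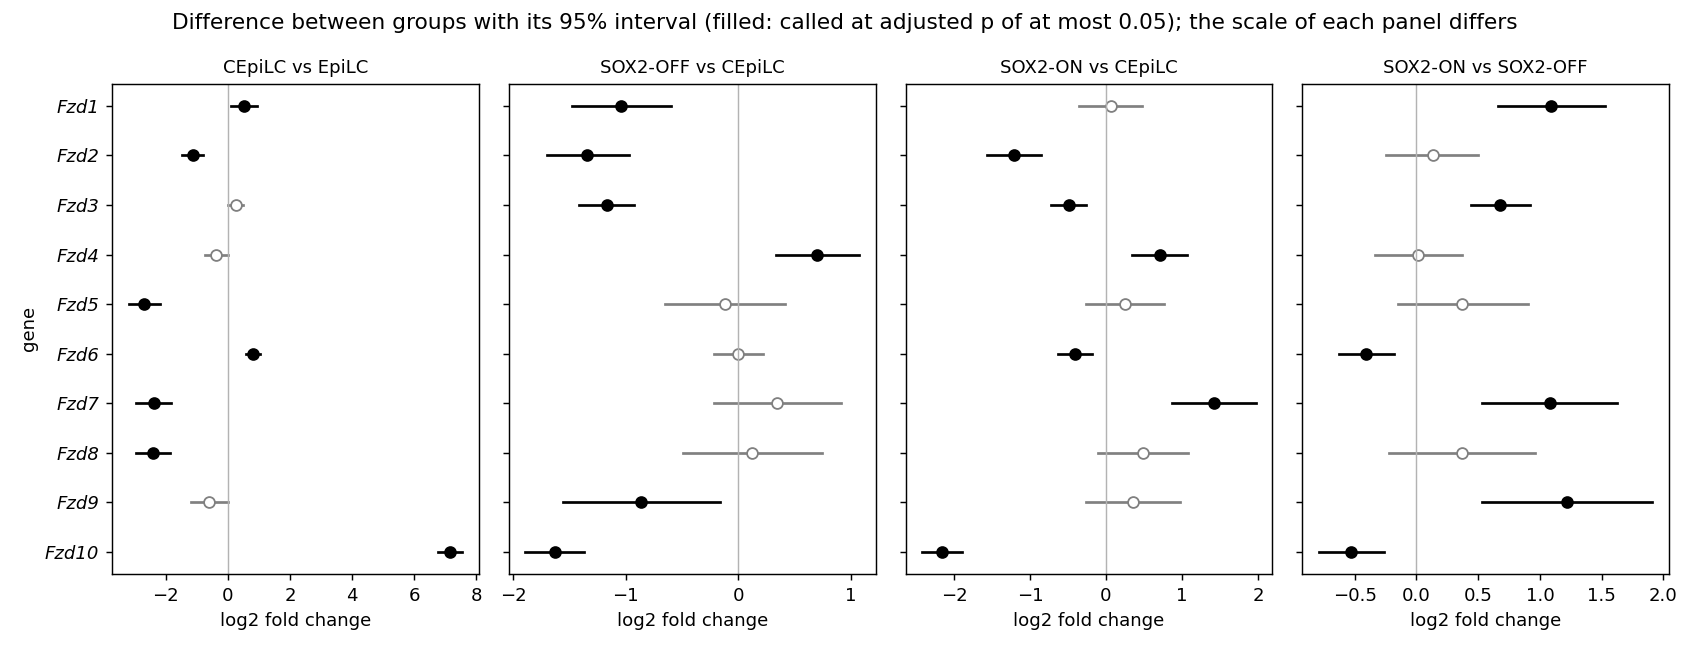
Points give the log2 fold change of each Frizzled gene from the edgeR fit in 4 of the comparisons, with bars for the 95% interval; filled points had an adjusted p of at most 0.05 and each panel has its own scale. Fzd10 lies at 7.14 in the first panel and below 0 in the other panels, and Fzd7 lies at 1.42 and 1.08 in the panels of SOX2-ON.

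The comparison of SOX2-ON with SOX2-OFF asked how the family differs with sustained Sox2 when line and CHIR99021 are held alike. Of the 10 genes, 6 changed. Fzd1, Fzd3, Fzd7 and Fzd9 were higher in SOX2-ON and Fzd6 and Fzd10 were lower. Over all genes tested 28.8% were called, 14.8% higher and 14.1% lower. The median log2 fold change of the members was 0.37, and that of all genes -0.008. The sum of 4 paraxial mesoderm markers moved along with these groups, at 91 to 188 TPM in SOX2-OFF and 0.81 to 2.16 TPM in SOX2-ON. That sum was mostly Msgn1, with a mean of 115 TPM in SOX2-OFF. Msgn1 and Tbx6 were lower in SOX2-ON, and Meox1 and Foxc2 did not pass. The sum of the caudal markers given above also moved with the groups, but not every gene in it. Of those 6 genes, 5 were lower in SOX2-ON and Cdx2 was higher. Cdx2 was at 31.9, 29.2 and 35.9 TPM in SOX2-OFF and at 70.3, 51.8 and 74.9 TPM in SOX2-ON (0.97 ± 0.22, adjusted p = 0.00481). All 4 neural markers tested (Sox1, Pax6, Neurog2 and Tubb3) were higher in SOX2-ON, and the sums over the neural list did not overlap. The sums were mostly Tubb3, at means of 46.9 TPM in SOX2-OFF and 71.2 TPM in SOX2-ON. In SOX2-OFF, Neurog2 had 0 reads in each library, Pax6 at most 2 and Sox1 at most 5. The median of 3.08 therefore rests on few reads. The paper reports that SOX2-ON cells under CHIR99021 did not take on neural identity. The call of Sox1 was lost without any 1 of the SOX2-OFF replicates or SOX2-ON replicates 1 or 2, and that of Tubb3 without SOX2-OFF replicates 1 or 2 or SOX2-ON replicates 1 or 3 (adjusted p up to 0.181 and 0.11). Of the 8 tested markers of extraembryonic endoderm, Dab2, Cubn and Amn were lower in SOX2-ON, Gata6 was higher and 4 did not pass, with overlapping sums. These calls were lost for Dab2 and Amn without SOX2-OFF replicates 2 or 3 or SOX2-ON replicates 1 or 2, for Cubn without replicates 1 or 2 of either group and for Gata6 without SOX2-OFF replicate 1 or SOX2-ON replicate 3 (adjusted p up to 0.146). The part of these markers in the Frizzled differences was not tested.

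Fzd7 was at 23, 22.8 and 31 TPM in SOX2-OFF and at 59.3, 59.9 and 47.9 TPM in SOX2-ON. Every SOX2-ON library was above every SOX2-OFF library, by 2.11-fold in the fit (log2 fold change 1.08 ± 0.25, adjusted p = 0.00622). Fzd1 moved with it, from 4.93, 3.88 and 6.55 TPM in SOX2-OFF to 10.8, 10.6 and 12.2 TPM in SOX2-ON (1.09 ± 0.20, adjusted p = 0.00124), again without overlap. Fzd2, the remaining member of this subfamily, did not pass the test, at 10.9, 14.4 and 13.8 TPM in SOX2-OFF and 16.6, 16.9 and 10.5 TPM in SOX2-ON. The ranges of Fzd2 overlapped and the interval of its difference reached from -0.25 to 0.50 (adjusted p = 0.628).

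Fzd10 went the other way, from 46.8, 49.9 and 40.8 TPM in SOX2-OFF to 34.5, 35 and 29.5 TPM in SOX2-ON. The groups did not overlap, and the difference was 1.44-fold (log2 fold change -0.53 ± 0.12, adjusted p = 0.00613). Fzd6 was also lower, at 8.8, 10.5 and 9.56 TPM against 12.2, 11.6 and 13.1 TPM (-0.41 ± 0.10, adjusted p = 0.0102), whereas its relative Fzd3 was higher, at 10.6, 15.4 and 12.9 TPM in SOX2-ON against 8.55, 7.01 and 7.92 TPM in SOX2-OFF (0.68 ± 0.11, adjusted p = 0.000519). Neither gene's ranges overlapped. Fzd9 was at 0.52, 1.05 and 0.52 TPM in SOX2-OFF and at 1.89, 1.75 and 1.61 TPM in SOX2-ON, again apart (1.22 ± 0.32, adjusted p = 0.0115). These levels rest on 6 to 20 reads in SOX2-OFF and 28 to 36 in SOX2-ON, and without SOX2-OFF replicate 1 the Fzd9 call was lost (1.02, adjusted p = 0.0553).

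Among the genes that did not pass between these groups, Fzd4 differed least, at 3.75, 4.24 and 3.78 TPM in SOX2-OFF and 3.68, 4.07 and 4.59 TPM in SOX2-ON (0.01, 95% interval -0.34 to 0.37, adjusted p = 0.969). Fzd5 was at 5.22, 5.04 and 4.83 TPM in SOX2-OFF and at 6.6, 7.08 and 6.53 TPM in SOX2-ON. Its ranges did not overlap but the difference of 0.37 ± 0.24 did not pass (adjusted p = 0.275), in a model whose spread for this gene also holds that of the EpiLC libraries. Fitted on the 6 libraries of these groups alone, it passed (0.38, adjusted p = 0.00932). Fzd8 was at 1.2, 1.86 and 1.2 TPM and at 2.33, 1.95 and 1.5 TPM, with overlap (95% interval -0.22 to 0.96, adjusted p = 0.337).

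Set against CEpiLC, the SOX2 TetON groups under the same CHIR99021 exposure showed lower Fzd10, Fzd2 and Fzd3 and higher Fzd4. In SOX2-OFF, 6 genes changed, with Fzd4 higher and Fzd1, Fzd2, Fzd3, Fzd9 and Fzd10 lower, where 48.5% of all genes were called (23.6% higher and 24.9% lower). In SOX2-ON, 6 genes changed, with Fzd4 and Fzd7 higher and Fzd2, Fzd3, Fzd6 and Fzd10 lower, where 56.5% of all genes were called (27.9% higher and 28.6% lower). Median differences of the 10 genes were -0.49 for SOX2-OFF and 0.15 for SOX2-ON, against -0.013 and -0.012 for all genes. Both comparisons use the same CEpiLC libraries, and the line differs in both.

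Fzd10 in CEpiLC lay above 120 TPM and in both SOX2 TetON groups below 50 TPM. It was 3.1-fold lower in SOX2-OFF (log2 fold change -1.63 ± 0.12, adjusted p = 4.54e-07) and 4.46-fold lower in SOX2-ON (-2.16 ± 0.12, adjusted p = 3.45e-08). Fzd3 was 2.25-fold lower in SOX2-OFF (-1.17 ± 0.11, adjusted p = 2.66e-06) and 1.41-fold lower in SOX2-ON (-0.49 ± 0.11, adjusted p = 0.00165), with no overlap in either. Fzd4 was higher by 0.70 ± 0.17 (adjusted p = 0.00435) and by 0.71 ± 0.17 (adjusted p = 0.00304), from a mean of 2.46 ± 0.164 TPM in CEpiLC to 3.92 ± 0.275 and 4.11 ± 0.457 TPM. It was the sole member called higher in both.

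Fzd2 was 2.53-fold lower in SOX2-OFF (-1.34 ± 0.17, adjusted p = 2.77e-05) and 2.31-fold lower in SOX2-ON (-1.21 ± 0.17, adjusted p = 4.06e-05). It lies on chromosome 11 (102604431 to 102608058, plus strand), whose 678 well-expressed genes were shifted together between the lines. Their median was -0.51 in SOX2-OFF and -0.54 in SOX2-ON against CEpiLC, and which line departed was not tested. With the shift of each chromosome removed, Fzd2 was lower by -0.82 ± 0.17 in SOX2-OFF (adjusted p = 0.0017) and by -0.67 ± 0.16 in SOX2-ON (adjusted p = 0.00442), so that both calls held at values 1.62 and 1.81 times smaller. The chromosomes of the other members had medians between -0.06 and 0.06, and none of their calls changed when the shifts were removed.

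Fzd7 and Fzd1 differed between the SOX2 TetON groups in how they stood to CEpiLC. Fzd7 was 2.68-fold higher in SOX2-ON than in CEpiLC (1.42 ± 0.26, adjusted p = 0.000396), with no overlap. In SOX2-OFF it overlapped CEpiLC and did not pass (0.34 ± 0.26, adjusted p = 0.296), but the highest CEpiLC library decided this, since without CEpiLC replicate 3 the difference was 0.76 and called (adjusted p = 0.00486). Fzd1 was 2.05-fold lower in SOX2-OFF (-1.04 ± 0.20, adjusted p = 0.000883) and close to CEpiLC in SOX2-ON (0.06, 95% interval -0.36 to 0.47, adjusted p = 0.822). Fzd6 was lower than CEpiLC in SOX2-ON (-0.41 ± 0.10, adjusted p = 0.0043), and in SOX2-OFF its difference was near 0, with an interval of -0.22 to 0.22 (adjusted p = 0.981).

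Fzd9 was lower in SOX2-OFF than in CEpiLC by -0.86 ± 0.33 (adjusted p = 0.0433), with overlapping ranges. That call was lost without CEpiLC replicate 1 (-0.51, adjusted p = 0.278), without SOX2-OFF replicate 1 (-0.65, adjusted p = 0.168) or without SOX2-OFF replicate 3 (-0.72, adjusted p = 0.121), and without SOX2-OFF replicate 2 the value was -1.31 (adjusted p = 0.0104). Fzd5 and Fzd8, which had fallen most in CEpiLC, did not pass against it, at -0.12 (95% interval -0.65 to 0.41) and 0.12 (95% interval -0.49 to 0.74) in SOX2-OFF and at 0.25 (95% interval -0.26 to 0.76) and 0.49 (95% interval -0.10 to 1.08) in SOX2-ON. Only Fzd8 in SOX2-ON moved past the threshold under an alternative, at 0.79 without CEpiLC replicate 3 (adjusted p = 0.0186).

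Against EpiLC, where CHIR99021 and line both differ, 9 genes changed in SOX2-OFF and 7 in SOX2-ON. In SOX2-OFF, Fzd6 and Fzd10 were higher, Fzd4 did not pass and the other 7 were lower, where 62.1% of all genes were called (31.5% higher and 30.6% lower). In SOX2-ON, Fzd1, Fzd6 and Fzd10 were higher, Fzd2, Fzd5, Fzd7 and Fzd8 were lower and Fzd3, Fzd4 and Fzd9 did not pass, where 59.8% of all genes were called (30.7% higher and 29.1% lower). The 10 genes had a median difference of -1.18 in SOX2-OFF and -0.23 in SOX2-ON. Fzd10 exceeded its EpiLC level by 45.6-fold in SOX2-OFF and by 31.7-fold in SOX2-ON. Fzd7 was 4.12-fold lower in SOX2-OFF (adjusted p = 1.45e-05) and 1.95-fold lower in SOX2-ON (adjusted p = 0.004). Fzd1 stood on opposite sides of EpiLC, at -0.53 ± 0.20 in SOX2-OFF (adjusted p = 0.0379) and 0.57 ± 0.19 in SOX2-ON (adjusted p = 0.0219). Both Fzd1 calls were lost when single libraries were left out, the former without any 1 of the 3 EpiLC replicates or SOX2-OFF replicates 1 or 2 (adjusted p up to 0.178, and -0.35 without SOX2-OFF replicate 2), the latter without EpiLC replicates 2 or 3 or SOX2-ON replicate 3 (adjusted p up to 0.0698). Fzd4 passed in both groups without EpiLC replicate 2 (0.51, adjusted p = 0.0201, and 0.53, adjusted p = 0.0184), and Fzd3 was lower in SOX2-ON without SOX2-ON replicate 2 (-0.37, adjusted p = 0.00676).

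Read gene by gene, the levels fell into different orders. Fzd10 ran from CEpiLC (143 ± 24.2 TPM) through SOX2-OFF (45.8 ± 4.63 TPM) and SOX2-ON (33 ± 3.03 TPM) down to EpiLC (0.983 ± 0.277 TPM), and each step passed the test. Fzd7 ran from EpiLC (107 ± 6.41 TPM) through SOX2-ON (55.7 ± 6.73 TPM) to SOX2-OFF (25.6 ± 4.69 TPM) and CEpiLC (20.8 ± 10 TPM), and the last 2 overlapped. These led the family, and their order over the groups was nearly opposite.

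Fzd2 also started from EpiLC (72.7 ± 6.72 TPM), with CEpiLC next (33.1 ± 3.84 TPM) and then SOX2-ON (14.7 ± 3.62 TPM) and SOX2-OFF (13 ± 1.84 TPM), whose difference did not pass. Fzd5 (35.4 ± 14.7 TPM in EpiLC) and Fzd8 (7.14 ± 0.62 TPM in EpiLC) were high in EpiLC alone, and none of the steps among the other groups passed for either, at means of 5.03 to 6.74 TPM for Fzd5 and 1.41 to 1.93 TPM for Fzd8. Fzd5 lies on chromosome 1 (64730558 to 64737750, minus strand) with 2 exons, and Fzd8 on chromosome 18 (9212856 to 9216201, plus strand) with 1.

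Fzd6 ran from CEpiLC (12.5 ± 1.49 TPM) and SOX2-OFF (12.3 ± 0.757 TPM), whose difference did not pass, to SOX2-ON (9.62 ± 0.846 TPM) and EpiLC (7.17 ± 0.403 TPM). Fzd3 had CEpiLC (17.7 ± 0.602 TPM), EpiLC (15 ± 1.24 TPM) and SOX2-ON (13 ± 2.37 TPM) as neighbours that did not pass and SOX2-OFF (7.83 ± 0.774 TPM) below them. Fzd1 put SOX2-ON (11.2 ± 0.855 TPM) and CEpiLC (10.5 ± 2.61 TPM) on top without a difference that passed, then EpiLC (7.36 ± 0.632 TPM) and SOX2-OFF (5.12 ± 1.35 TPM). In Fzd4 no neighbouring groups passed. Fzd9 was at most 2.01 ± 0.138 TPM (EpiLC), and SOX2-OFF was lowest with 0.697 ± 0.306 TPM. Antisense or overlapping gene models lie across Fzd3, Fzd5 and Fzd6 in GENCODE (Gm9086, Gm38058 and Gm26704 on the opposite strand, and Gm27263 on the strand of Fzd3), and the reads were counted by strand.

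Co-receptors were described next, from a list of 11 genes of which 10 were tested. For this and the later lists, the share of all genes called was 42.2% between CEpiLC and EpiLC. It was 28.8% between SOX2-ON and SOX2-OFF, and against CEpiLC 48.5% for SOX2-OFF and 56.5% for SOX2-ON. Between CEpiLC and EpiLC, 3 rose (Ror2, Ptk7 and Tspan12), 3 fell (Lrp5, Ror1 and Adgra2) and 4 did not pass, with a median of 0.14. Adgra2 lost its call without EpiLC replicate 3 or without CEpiLC replicates 1 or 2 (adjusted p up to 0.0711). PTK7, a receptor of planar polarity, had the highest transcript level, with 114, 103 and 112 TPM in EpiLC and 545, 413 and 476 TPM in CEpiLC (log2 fold change 2.13 ± 0.09, adjusted p = 3.65e-09). Its CEpiLC libraries were all far above those of EpiLC. The ROR receptors for WNT5A moved apart. Ror2 rose from 13.4, 10.5 and 12.7 TPM to 69.6, 54 and 47.3 TPM (2.23 ± 0.13, adjusted p = 5.93e-08) while Ror1 fell from 27.6, 24.6 and 21 TPM to 5.28, 5.72 and 2.91 TPM (-2.37 ± 0.23, adjusted p = 3.83e-06).

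The LRP co-receptors pair with Frizzleds for β-catenin signalling, and 1 of them fell. Lrp5 was at 51.7, 53.3 and 47.9 TPM in EpiLC and at 38.5, 37 and 37.5 TPM in CEpiLC (-0.43 ± 0.07, adjusted p = 0.000343). Lrp6 was at 30, 29.5 and 27.6 TPM and at 30.2, 31.9 and 28.9 TPM, with overlap (0.07 ± 0.09, adjusted p = 0.575). From SOX2-OFF to SOX2-ON, 1 of the 10 co-receptors was higher (Lrp6, 0.40 ± 0.09, adjusted p = 0.00413) and 4 were lower (Lrp5, Ror2, Ryk and Ptk7), with a median of -0.19. Ptk7 went from 254, 234 and 242 TPM to 167, 154 and 148 TPM there (-0.68 ± 0.09, adjusted p = 0.000112). Against CEpiLC, Lrp6 was higher and Ror2 and Ptk7 lower in both SOX2 TetON groups. In SOX2-ON, Lrp5, Ryk and Reck were lower too, which made 5 of the 10. The Lrp5 call there (-0.19, adjusted p = 0.0361) was lost in 6 of 15 alternatives (adjusted p up to 0.119). That of Reck (-0.38, adjusted p = 0.0128) was lost without CEpiLC replicate 2 or SOX2-ON replicate 3 (adjusted p up to 0.065). Lrp6 lies on chromosome 6, whose genes had a median of 0.57 in SOX2-OFF against CEpiLC, and with that shift removed its difference of 0.49 became -0.08 (adjusted p = 0.515). In SOX2-ON the chromosome median was also 0.57, and the difference of Lrp6 went from 0.89 to 0.33 (adjusted p = 0.00766). Tspan12, on the same chromosome, was at 0.02 in SOX2-ON and at -0.55 with the shift removed (adjusted p = 0.0101).

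**Figure D4:**
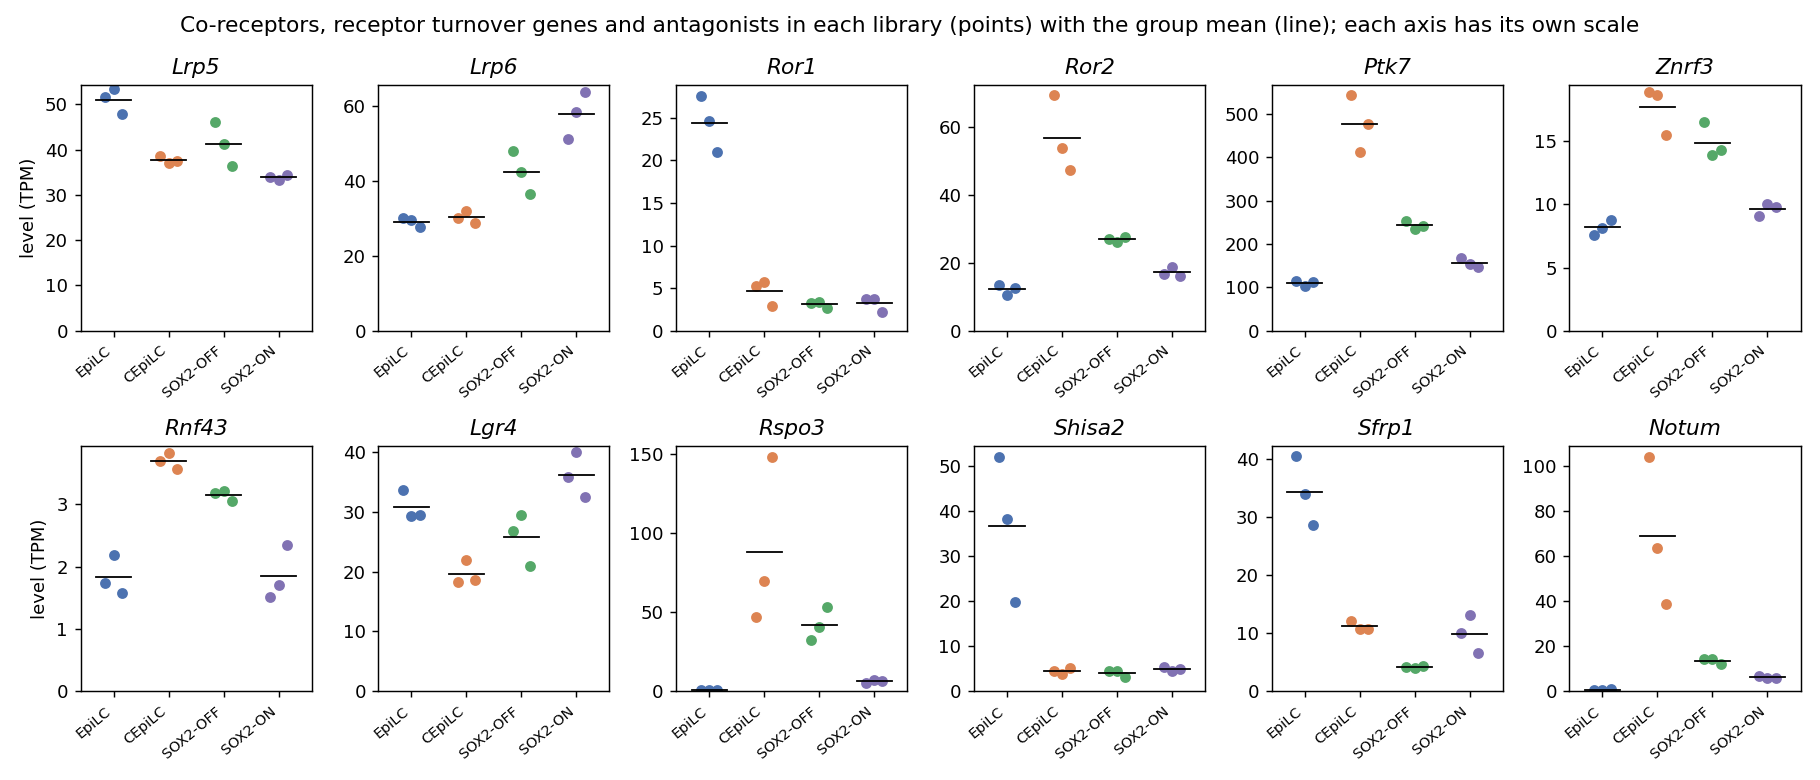
Each panel shows 1 partner gene of the Frizzled receptors, with its level (TPM, axis from 0 and scaled to the gene) in the 3 libraries of each group as points and the group mean as a line. Ptk7, Ror2, Znrf3, Rspo3 and Notum are highest in CEpiLC, and Ror1, Shisa2 and Sfrp1 in EpiLC.

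Genes that set how much Frizzled stays on the cell surface formed a list of 12, all tested. From EpiLC to CEpiLC, 4 rose (Rnf43, Znrf3, Rspo3 and Rspo4), 3 fell (Lgr4, Rspo2 and Shisa2) and 5 did not pass, with a median of 0.09. Few reads lay behind Rspo2 (4, 2 and 5 in CEpiLC) and Rspo4 (11, 6 and 1 in EpiLC). Znrf3, a ubiquitin ligase that targets Frizzleds, rose from 7.57, 8.17 and 8.8 TPM to 18.9, 18.7 and 15.5 TPM (1.13 ± 0.09, adjusted p = 5.22e-07), and its relative Rnf43 from 1.73, 2.19 and 1.58 TPM to 3.69, 3.82 and 3.57 TPM (1.01 ± 0.17, adjusted p = 0.000367). R-spondin 3, which counters these ligases, rose as well. Rspo3 was at 0.85, 0.7 and 1.13 TPM in EpiLC and at 47.3, 69.7 and 148 TPM in CEpiLC (6.65 ± 0.49, adjusted p = 3.5e-07), highest in CEpiLC replicate 3. Lgr4, a receptor for R-spondins, went from 33.6, 29.2 and 29.4 TPM to 18.2, 21.9 and 18.6 TPM (-0.65 ± 0.12, adjusted p = 0.00077). Shisa2, whose product holds Frizzleds back in the endoplasmic reticulum, was at 52, 38.1 and 19.9 TPM in EpiLC and at 4.45, 3.79 and 5.28 TPM in CEpiLC (-3.05 ± 0.29, adjusted p = 3.38e-06), and its EpiLC libraries ranked as they did for Fzd5.

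From SOX2-OFF to SOX2-ON, 3 of the 12 were lower (Rnf43, Znrf3 and Rspo3), 3 were higher (Lgr4, Lgr6 and Shisa3) and 6 did not pass, with a median of 0.26. Znrf3 went from 16.5, 13.9 and 14.3 TPM to 9.08, 10 and 9.8 TPM (-0.70 ± 0.09, adjusted p = 6.37e-05), and Rspo3 from 32.7, 40.5 and 53.3 TPM to 5.34, 7.4 and 6.74 TPM (-2.75 ± 0.37, adjusted p = 0.000122). Neither pair of ranges overlapped. Lgr6, another receptor for R-spondins, was at 0.58, 0.56 and 0.63 TPM in SOX2-OFF and at 2.78, 2.42 and 2.43 TPM in SOX2-ON (2.06 ± 0.23, adjusted p = 2.57e-05). Lgr4 lost its call between these groups without SOX2-OFF replicate 3 or without SOX2-ON replicate 2 (adjusted p up to 0.0635). Against CEpiLC, the list had 1 higher (Lgr4) and 4 lower (Znrf3, Rspo1, Rspo3 and Rspo4) in SOX2-OFF, and 3 higher (Lgr4, Lgr6 and Shisa3) and 4 lower (Rnf43, Znrf3, Rspo3 and Rspo4) in SOX2-ON. In SOX2-OFF, calls were lost for Lgr4 without SOX2-OFF replicate 2 (adjusted p = 0.0581), for Rspo1 without CEpiLC replicate 1 (adjusted p = 0.1), for Rspo3 without CEpiLC replicate 3 or SOX2-OFF replicates 1 or 2 (adjusted p up to 0.0776 over the alternatives) and for Znrf3 without CEpiLC replicates 1 or 2 or SOX2-OFF replicates 2 or 3. Znrf3 lies on chromosome 11, as Fzd2 does, and with the shift of that chromosome removed its difference in SOX2-OFF turned from -0.24 to 0.27 (adjusted p = 0.0208).

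Antagonists that act on WNT ligands or on the receptor complex were a list of 17, of which 12 were tested. In CEpiLC 7 were higher than in EpiLC (Frzb, Dkk1, Dkk4, Kremen1, Kremen2, Notum and Apcdd1) and 2 were lower (Sfrp1 and Sfrp2), with a median of 0.90. The call of Frzb was lost without EpiLC replicates 2 or 3 or CEpiLC replicate 3 and that of Sfrp2 without EpiLC replicates 1 or 2 or CEpiLC replicates 2 or 3 (adjusted p up to 0.153 and 0.149 over the alternatives). Notum, which removes the lipid from WNT, went from 0.79, 0.48 and 0.91 TPM to 104, 63.9 and 39 TPM (6.61 ± 0.38, adjusted p = 3.71e-08). Sfrp1, a secreted protein with a Frizzled-like domain, went from 40.5, 34 and 28.7 TPM to 12.2, 10.8 and 10.8 TPM (-1.60 ± 0.19, adjusted p = 2.3e-05). From SOX2-OFF to SOX2-ON, Sfrp1 and Sfrp2 were higher and Frzb, Dkk1, Notum and Apcdd1 lower. Dkk1, an antagonist that binds LRP5 and LRP6, was highest in SOX2-OFF, at 41.5, 44.3 and 60.3 TPM, against 9.95, 13.3 and 20.2 TPM in SOX2-ON and 2.45, 2.87 and 10.9 TPM in CEpiLC. It was at or under 2 reads in each EpiLC library, and Dkk4 was at 0 reads in each. Against CEpiLC, 3 antagonists were higher and 6 lower in SOX2-OFF and 2 higher and 5 lower in SOX2-ON. Kremen1, on chromosome 11, is among the lower ones in both, and with the shift of that chromosome removed its difference of -0.52 in SOX2-OFF was no longer called (adjusted p = 0.98) and that of -0.25 in SOX2-ON turned to 0.29 (adjusted p = 0.0256). The SOX2-ON call of Kremen1 changed in 9 of 15 alternatives, among them those without CEpiLC replicates 1 or 3 or SOX2-ON replicates 2 or 3. Sfrp1, on chromosome 8, went from -0.22 to -0.81 in SOX2-ON when the shift was removed (adjusted p = 0.00371).

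The ligand list held the 19 WNT genes and Ndp, which encodes Norrin, and 17 of its 20 genes were tested. LGK974 blocks the secretion of WNT proteins, yet 11 ligand transcripts were higher in CEpiLC than in EpiLC. Another 3 were lower (Wnt4, Wnt7b and Ndp) and 3 did not pass, with a median of 2.84. In EpiLC, Wnt2, Wnt6 and Wnt10a had at most 2 reads in any library and Wnt11 at most 5, so the sizes of these rises rest on few reads. In CEpiLC, Wnt2 was at 0.28, 0.62 and 4.06 TPM and Wnt2b at 0.36, 0.44 and 2.71 TPM, each highest in replicate 3. Wnt8a had the highest level in CEpiLC, at 270, 264 and 128 TPM, from 4.75, 2.63 and 5.26 TPM in EpiLC (5.74 ± 0.35, adjusted p = 7.4e-08). Wnt5b rose from 2.59, 2.34 and 2.09 TPM to 45.3, 44.3 and 96.5 TPM (4.66 ± 0.31, adjusted p = 1.84e-07). From SOX2-OFF to SOX2-ON, 10 ligands were lower, 2 were higher (Wnt7a and Ndp) and 5 did not pass, with a median of -1.28. Wnt3a was among those lower, at 9.52, 12.9 and 9.68 TPM in SOX2-OFF and 0.71, 1.14 and 0.86 TPM in SOX2-ON (-3.63 ± 0.26, adjusted p = 8.09e-07). Ndp, the ligand particular to Fzd4, was at 1.56, 1.24 and 1.51 TPM in SOX2-ON and at 0, 0 and 0.09 TPM in SOX2-OFF, where no library held more than 1 read, so no fold is given. Of the calls between SOX2-ON and SOX2-OFF, that of Wnt4 was lost without SOX2-OFF replicates 1 or 2 (adjusted p up to 0.0601), that of Wnt7a without SOX2-OFF replicate 2 or SOX2-ON replicate 1 (up to 0.114) and that of Wnt7b without replicates 1 or 2 of either group (up to 0.0814). Against CEpiLC, 6 ligands were higher and 3 lower in SOX2-OFF, and 2 were higher and 10 lower in SOX2-ON.

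A list of 4 held the Dishevelled genes, whose products act inside the cell, and Smo, the Frizzled-related receptor of the Hedgehog pathway. Of these 4, Dvl3 was higher in CEpiLC than in EpiLC (0.27 ± 0.07, adjusted p = 0.00971) and between SOX2-ON and SOX2-OFF their differences ran from -0.11 for Smo to 0.09 for Dvl2 (adjusted p = 0.472 and 0.35). Dvl2 was lower in both SOX2 TetON groups than in CEpiLC, by -0.43 and -0.34, and on its chromosome, the same as that of Fzd2, the values with the shift removed were 0.08 (adjusted p = 0.337) and 0.20 (adjusted p = 0.0223), the second in the opposite direction. Smo, on chromosome 6, differed from CEpiLC by 0.18 in SOX2-OFF and 0.07 in SOX2-ON (adjusted p = 0.171 and 0.575), and with the shift of that chromosome removed it was lower in both, at -0.39 (adjusted p = 0.00794) and -0.50 (adjusted p = 0.00139).

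Of 9 planar polarity partners, 3 were higher in CEpiLC than in EpiLC (Vangl1, Celsr1 and Prickle2) and 2 lower (Celsr2 and Prickle1, the latter losing its call without any 1 of the EpiLC replicates or CEpiLC replicates 1 or 2, adjusted p up to 0.109). With the replicate number as a block, Celsr3 was lower as well (-0.30, adjusted p = 0.124 without the block, and -0.32, adjusted p = 0.0249 with it). From SOX2-OFF to SOX2-ON, Celsr2 and Celsr3 were higher and Vangl1, Prickle1 and Prickle3 lower. Celsr2, an atypical cadherin that works with Fzd3 and Fzd6, went from 1.95, 1.51 and 1.18 TPM to 4.97, 5.51 and 5.46 TPM (1.71 ± 0.16, adjusted p = 6.36e-06), the direction of Fzd3 and the opposite of Fzd6. Celsr3 was less firm (0.46 ± 0.16, adjusted p = 0.0447), and its call was lost without SOX2-OFF replicates 2 or 3 or any 1 of the SOX2-ON replicates (adjusted p up to 0.188). Against CEpiLC, Vangl2, Celsr1 and Prickle1 were lower and Vangl1 higher in both SOX2 TetON groups. Prickle2, on chromosome 6, was at -0.19 in SOX2-OFF and -0.07 in SOX2-ON and did not pass, and with the shift removed it was lower, at -0.77 (adjusted p = 0.00106) and -0.63 (adjusted p = 0.00263). Over all 64 partner genes tested, 42 were called between CEpiLC and EpiLC, of which 5 lost the call in at least 1 alternative. Between SOX2-ON and SOX2-OFF 34 were called, of which 6 did. Of all genes, 42.2% and 28.8% were called in these comparisons. Against CEpiLC, 33 were called in SOX2-OFF and 39 in SOX2-ON, of which 8 and 9 lost the call in at least 1 alternative. There 48.5% and 56.5% of all genes were called, so these 2 counts are not read as particular to the partners.

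Across the 12 libraries, each member was last compared with 10872 well-expressed genes by Pearson's correlation of log2 CPM, as a description over libraries that share 4 groups and 2 lines. Fzd10 was most like Foxb1 (r = 0.987), Cask (0.986) and Sp8 (0.984). Fzd5 was most like Shisa2 (0.985), Ube2k (0.977) and Tyro3 (0.970). Fzd6 lay closest to Lrp8 (0.984), Rspo3 (0.977) and Ptgs1 (0.974), and Fzd7 to Marcks (0.959), Tcf7l1 (0.958) and Sall1 (0.956). Fzd2 was nearest to G3bp1 (0.988), Fzd3 to Ankle2 (0.976), Fzd8 to Eif4e (0.974), Fzd4 to Myo1d (0.931) and Fzd1 to Chga (0.909). Within the family, the highest correlations were between Fzd5 and Fzd8 (0.93), Fzd7 and Fzd8 (0.88) and Fzd6 and Fzd10 (0.88), and the lowest were between Fzd10 and Fzd8 (-0.93), Fzd5 (-0.92) and Fzd7 (-0.89).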

How the data were processed

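Single-end, strand-specific libraries of poly(A) RNA (76-base reads) from 12 cultures were processed by the authors. Reads were trimmed (cutadapt 1.16), aligned to mm10 (STAR 2.5.2a) and quantified over RefSeq genes (RSEM 1.3.0). The deposited table gives an expected count and a TPM value per gene and library, as the authors' RSEM run wrote them. RSEM can divide a read between similar genes, and every Frizzled count was a whole number (6 to 7075). Here the expected counts were rounded, filtered with filterByExpr and tested with the quasi-likelihood test of edgeR 4.0.16 (with limma 3.58.1 in R 4.3.3; TMM scaling, 1 model of 12 libraries, Benjamini-Hochberg adjustment over 14196 genes, called at 0.05), in 6 comparisons. The common biological coefficient of variation was 0.105. Standard errors are derived from the F statistic. The study itself used DESeq2 (1.16.1), which was run here as an alternative (1.42.0). TPM values served only for levels and shares.

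All 10 members are named, other genes come from the lists of partners and markers, and 1 to 3 genes most like a member by Pearson's r over log2 CPM (mean of at least 2) are named; that result for Fzd9 is not reported here. The members, lists and comparisons were chosen with earlier results of these data known. Replicates are called biological by the labels. Same-numbered EpiLC and CEpiLC libraries deviated from their group means with correlations of 0.12, 0.132 and 0.103 over genes. These numbers were taken to pair them, since all 3 correlations were over 0.1, which held in no other comparison. The main test held no block for this pairing, which entered as an alternative. The pairing comes from the values and the cut was a choice. Correlations between SOX2-OFF and CEpiLC were 0.0526, 0.179 and 0.173, and those between SOX2-ON and CEpiLC were 0.0637, 0.201 and 0.163. Libraries with unlike numbers were not compared. No replicates were copies of 1 library. The tests were checked on simulated data. Positions and promoter windows are those of RefSeq on GRCm38.p6; windows for Fzd2, Fzd3, Fzd6 and Fzd8 and protein sequences were not analysed here. The alternatives were RLE scaling or scaling by library size, keeping all genes with any count or those over 1 CPM in 3 libraries, limma-voom and DESeq2, a fit on 6 libraries, the replicate number as a block, removal of chromosome shifts (medians over genes averaging 4 log2 CPM or more) and leaving out each replicate.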

Additional observations from a re-analysis of the deposited data

How the results depend on the processing

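Of 60 differences (10 genes in 6 comparisons), 46 kept their side of the threshold in every alternative run, 5 of the 41 called ones lost the call in at least 1, 9 others gained one, and no called difference changed sign. Among 880 recomputed values, 832 kept direction and call. All changes of sign were in differences near 0 that were not called, and the cause was not tested. For Fzd6 in SOX2-OFF against CEpiLC (-0.00342) they were 0.00149 with RLE scaling, 0.000382 with all genes that had any count, 0.00408 with DESeq2 and 0.02 with limma-voom, and -0.08 to 0.08 when replicates were left out. When replicates were left out, Fzd8 in SOX2-OFF against CEpiLC ran from -0.13 to 0.42, Fzd1 in SOX2-ON against CEpiLC from -0.15 to 0.18, and, between SOX2-ON and SOX2-OFF, Fzd2 from -0.000526 to 0.32 and Fzd4 from -0.07 to 0.07.

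Fzd1 between CEpiLC and EpiLC also missed the threshold with RLE scaling (adjusted p = 0.0554), limma-voom (0.0619) and a fit on 6 libraries (0.057), and Fzd9 between SOX2-OFF and CEpiLC with every gene that had any count (0.0559), DESeq2 (0.0848) and 6 libraries (0.106). Fzd3 passed between CEpiLC and EpiLC on 6 libraries (0.0276). With the replicate number as a block, the calls between CEpiLC and EpiLC stayed at 7, as without it. The 1 call of a member that the block changed was Fzd9 in SOX2-OFF against CEpiLC (-0.85, adjusted p = 0.0554). There the same-numbered libraries had correlations of 0.0526, 0.179 and 0.173, and whether the numbers pair them was not settled. Between CEpiLC and EpiLC the block also gave a call to 2 partner genes, Celsr3 (-0.32, adjusted p = 0.0249) and Wnt9b (1.54, adjusted p = 0.0321), and to 3 marker genes, Dab2 (-0.91, adjusted p = 0.0327), Gata6 (1.76, adjusted p = 0.0136) and Sox1 (-0.95, adjusted p = 0.0343), and it changed no other call of the listed genes there. The number of called members stayed within 1.5 times in all alternatives. The share of Fzd10 depends on length: without that scaling its share of Frizzled counts was 40.8% for CEpiLC libraries, 25.1% for those of SOX2-OFF and 12.9% for those of SOX2-ON. The order of the groups within each gene was the same in CPM and TPM. Counts of 6 to 50 limit Fzd9, and 3 replicates limit all values. Low counts also limit the folds of Fzd10 against EpiLC, where it had 32, 36 and 14 reads. Fzd8 had 23 to 73 reads in the groups other than EpiLC.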
